A study of Mus musculus with 9 samples.

Results

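Transcripts of respiratory complex I were measured in mature mouse oocytes, through the 46 genes whose symbol starts with Nduf among 24736 symbols in the deposited tables. The 46 were 38 subunit symbols, with 15 of the NdufA series (Ndufab1 included), 10 of NdufB, 2 of NdufC, 8 of NdufS and 3 of NdufV, and 8 assembly factors of the Ndufaf series. The oocytes came from 9 ICR female mice labelled 4 to 5 weeks old, with 15 oocytes at the second meiotic metaphase from each mouse in 1 library. The KYZY group of 3 mice was exposed to daily stressors for 6 weeks and then received 0.1 ml of a decoction of the herbal recipe Kai Yu Zhong Yu by gavage per day for 4 weeks. The stress group of 3 mice was exposed for 6 weeks to the stressors of a chronic unpredictable mild stress model, and the control group of 3 mice was not stressed. All 9 mice received 7.5 IU of PMSG and 7.5 IU of hCG, which induce ovulation, and the oocytes were collected 16 hours after hCG and freed of cumulus cells with hyaluronidase. A stressed group gavaged with vehicle is not among the labels, and the sequencing step is worded otherwise for the KYZY libraries than for the other 6, so recipe, gavage, the added weeks and any sequencing run cannot be told apart in comparisons with KYZY.

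Complex I is the entry point of electrons from NADH into the respiratory chain of mitochondria, and it pumps protons while passing those electrons to ubiquinone. Its matrix arm holds the flavin and the iron-sulphur clusters, its membrane arm holds the proton pumps encoded by mitochondrial DNA, and accessory subunits surround both. Assembly factors help to build the complex and are not part of its finished form. Oocytes draw much of their ATP from mitochondrial oxidation of pyruvate, and the embryo inherits its mitochondria from the oocyte.

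All 46 genes had enough counts to be tested, and 43 of them were above 0 in all 9 libraries. Total counts were 46324094 to 106990821 per library, and the 46 genes together took 0.0359% to 0.0575% of them. A read pair appeared to be worth 4 counts, so 12 counts, or 3 read pairs, were taken as the floor, which equals 0.105 to 0.245 CPM (a gene's count over the library total, after scaling by the trimmed mean of M values). With counts divided by 4, 44 of the 46 genes still had enough counts to be tested. None of the 7 mitochondrially encoded subunits looked for was listed by symbol, so they could not be analysed here. All 10 oocyte markers (among them Gdf9, Bmp15 and Zp3) were above the floor in all libraries, with a summed level of 52094 to 79573 CPM. Markers of cumulus and granulosa cells, the somatic cells around the oocyte, differed widely between libraries. The summed level of the 22 markers was 22.5, 366 and 664 CPM in KYZY 1, 2 and 3, 12.4, 25.8 and 68.8 CPM in stress 1, 2 and 3, and 12.6, 26.5 and 356 CPM in control 1, 2 and 3. Of these markers 6, 17 and 17 exceeded the floor in the KYZY libraries, 5, 7 and 15 in the stress libraries and 4, 7 and 15 in the control libraries, while Pgr and Areg were at 0 throughout. Control 3 had 228, 54.9 and 43.6 CPM of Cyp11a1, Star and Hsd3b1, against 14.7, 0.373 and 12.2 CPM in stress 3. Tnfaip6, Ptgs2, Vcan, Sfrp2, Inhba and Fst were instead higher in stress 3, for example Tnfaip6 with 5.14 against 1.94 CPM. Cyp19a1 had 2.80 to 11.8 CPM across the 9 libraries. Summed markers of stroma and endothelium (8 genes) were 19.7 to 75.8 CPM in KYZY, 22.0 to 25.96 CPM in stress and 22.2 to 63.8 CPM in control. Pecam1 alone had 14.7 to 27.3 CPM across the libraries. Dcn had 16.3 CPM in control 3, 19.9 CPM in KYZY 3 and at most 0.569 CPM elsewhere. Those of oviduct epithelium (9 genes) were 0.979 to 21.3 CPM in KYZY, 0.621 to 3.35 CPM in stress and 1.34 to 15.3 CPM in control, and those of blood and immune cells (8 genes) were 0.537 to 61.1, 0.773 to 2.84 and 0.331 to 10.1 CPM in the same order. The first principal component of all genes held 48.3% of the variance. KYZY 2 and KYZY 3 scored 53.0 and 62.6 on it, stress 3 scored 12.3 and control 3 scored 42.8, so that these 4 stood apart from the other 5 libraries, which lay between -39.9 and -26.4. In such bulk samples fewer cells of a type and less RNA per cell cannot be told apart.

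Promoter sequences from RefSeq (GRCm38.p6) matched 40 of the 46 genes. The 250 bases upstream of each RefSeq start were searched on both strands for the letters of 3 motifs of factors known to act on genes of the respiratory chain. The NRF1 motif (the letters GCGCA, any base, then GCGC) occurred in 7 of the 40 promoters (17.5%), those of Ndufa5, Ndufa8, Ndufa11, Ndufb4, Ndufs5, Ndufs6 and Ndufaf4, against 4.23% of 27025 genes. The ETS letters CCGGAAGT, read by GABP, occurred in 0 of 40 and in 3.23% of all genes, and the YY1 letters AAGATGGC in 0 of 40 and in 1.83%. The 3 promoters below show how this NRF1 motif stands, with a different free base in each, before Ndufaf4, the most abundant assembly factor, and before Ndufb4 and Ndufs5, each the lowest of its series. Capitals mark the NRF1 letters, and each sequence reads 5′ to 3′ up to the start of the gene in GENCODE, which lies inside the 250 bases searched for Ndufb4 and Ndufs5.
Ndufaf4, chr4:24897833-24898082, + strand, 250 bases: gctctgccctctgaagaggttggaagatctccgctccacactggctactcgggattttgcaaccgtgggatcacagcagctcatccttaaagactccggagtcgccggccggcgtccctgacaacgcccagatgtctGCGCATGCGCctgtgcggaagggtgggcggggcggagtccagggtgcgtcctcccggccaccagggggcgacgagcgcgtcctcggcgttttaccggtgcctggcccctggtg
Ndufb4, chr16:37654454-37654618, - strand, 165 bases: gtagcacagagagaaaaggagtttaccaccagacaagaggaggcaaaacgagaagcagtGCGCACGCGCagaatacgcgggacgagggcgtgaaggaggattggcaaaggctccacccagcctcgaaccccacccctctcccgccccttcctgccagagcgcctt
Ndufs5, chr4:123718203-123718436, - strand, 234 bases: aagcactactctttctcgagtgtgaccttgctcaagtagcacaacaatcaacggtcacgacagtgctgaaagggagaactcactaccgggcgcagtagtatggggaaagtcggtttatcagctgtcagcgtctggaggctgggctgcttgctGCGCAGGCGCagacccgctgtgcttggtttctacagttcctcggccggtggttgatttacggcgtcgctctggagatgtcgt
The NRF1 letters were thus held in common by genes whose mean levels over the 9 libraries were 112 CPM for Ndufaf4, 0.617 CPM for Ndufb4 and 0.689 CPM for Ndufs5.

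A single gene in each class made up much of its transcripts. Ndufa10, an accessory subunit of the membrane arm with a fold like that of a deoxyribonucleoside kinase, took 38.5% to 51.3% of the summed subunit CPM. Ndufaf4, which acts with Ndufaf3 in building the part of the matrix arm that binds quinone, took 73.3% to 85.6% of the summed CPM of the Ndufaf genes. Ndufab1, the mitochondrial acyl carrier protein, was the only other subunit with a mean above 10 CPM. The median of the mean levels was 2.77 CPM over 38 subunits (0.293 to 154 CPM) and 2.64 CPM over 8 assembly factors (0.129 to 112 CPM), and 8 subunits and 1 assembly factor lay below 1 CPM. Per kilobase of merged exons the order of levels was headed by Ndufa10 with 46.1 CPM per kb, Ndufaf4 with 28.8, Ndufa1 with 17.1, Ndufb6 with 10.6 and Ndufab1 with 7.90. The lower end held Ndufa4l2 with 0.268 CPM per kb, Ndufb7 with 0.161 and Ndufaf1 with 0.0857. The coefficient of variation across the 9 libraries had a median of 0.439 over the subunits (0.0904 for Ndufa10 to 1.22 for Ndufa7) and of 0.226 over the assembly factors (0.136 for Ndufaf7 to 1.10 for Ndufaf1).

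**Figure D1:**
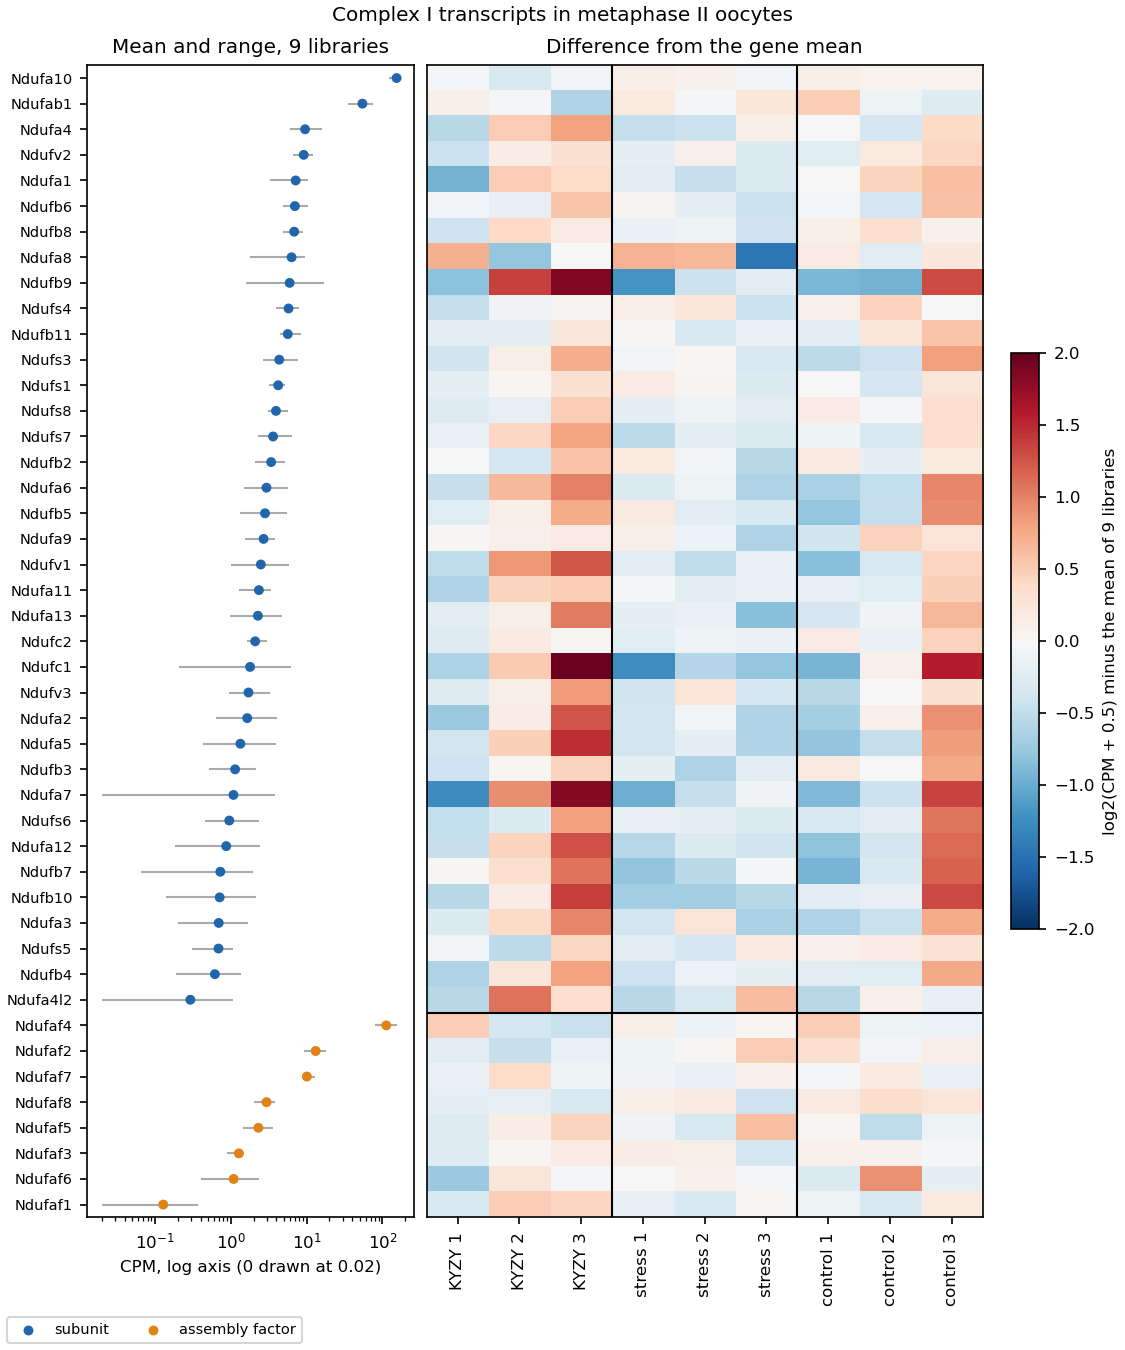
The left panel gives the mean CPM of each of 45 genes as a point with its range over 9 libraries as a line, on a log axis, and the right panel gives log2(CPM + 0.5) in each library minus the gene's mean, with colours cut at -2 and 2. Ndufa10 and Ndufaf4 lead their classes, and KYZY 3 and control 3 are red in most subunit rows. Most Ndufaf rows are paler, but Ndufaf6 is coloured in control 2 (2.37 CPM) and KYZY 1 (0.411 CPM). In Ndufaf1, at 0 to 0.367 CPM, the added 0.5 CPM narrows the colours.

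Library by library, the subunits were often highest in the same places. KYZY 3 was the highest library for 21 of 38 subunits and control 3 for 10, while KYZY 1 was the lowest for 12 and control 1 for 9. For 23 of the 38 subunits (60.5%) control 3 and KYZY 3 were the highest pair of libraries, as they were for 11.0% of all 13890 genes tested. The 3 libraries with the highest summed cumulus markers, control 3, KYZY 2 and KYZY 3, were the top 3 for 18 of 38 subunits (47.4%), for 1 of 8 assembly factors (Ndufaf1) and for 11.5% of all genes tested. These counts were made after the values had been seen, and they describe the libraries only.

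Without Ndufa10 and Ndufab1, the other 36 subunits summed to 87.7, 143 and 201 CPM in KYZY 1, 2 and 3, to 101, 102 and 89.3 CPM in stress 1, 2 and 3, and to 98.1, 107 and 177 CPM in control 1, 2 and 3. KYZY 2, KYZY 3 and control 3 thus stood above the other 6 libraries, which lay between 87.7 and 107 CPM. The group means were 144 ± 56.8 CPM in KYZY, 97.6 ± 7.24 CPM in stress and 127 ± 43.2 CPM in control (SD, n = 3 each), and the SD in KYZY exceeded every distance between these means. The 7 assembly factors other than Ndufaf4 summed to 25.8, 30.4 and 29.2 CPM in the KYZY libraries, to 29.5, 29.7 and 36.6 CPM in the stress libraries and to 33.8, 32.8 and 31.1 CPM in the control libraries. Here the 3 libraries with the highest summed cumulus markers, at 29.2 to 31.1 CPM, lay inside the range of the others. Stress 3 had 15 of 22 markers above the floor, as control 3 did, but a summed marker level of 68.8 CPM against 356 CPM. Its 36 subunits summed to 89.3 CPM. How far somatic RNA enters the subunit values was not tested.

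**Figure D2:**
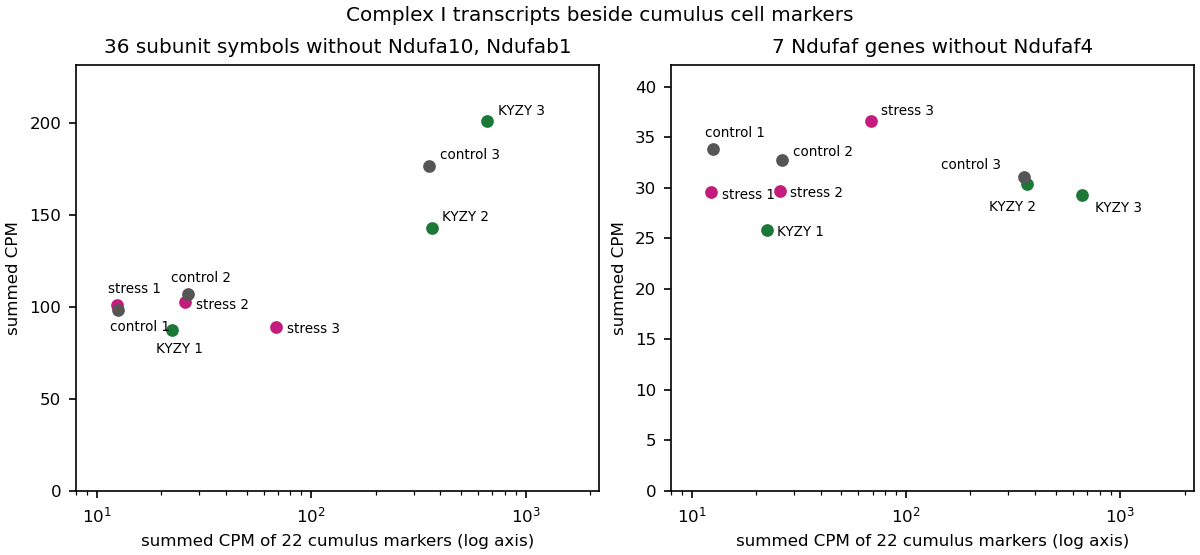
Each point is 1 library, with the summed CPM of 22 cumulus markers on a log axis against the summed CPM of 36 subunits (left) or 7 Ndufaf genes (right), coloured by group. Control 3, KYZY 2 and KYZY 3 lie to the right in both panels and stand at 143 to 201 CPM on the left, above the other 6 libraries, but at 29.2 to 31.1 CPM on the right.

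The 7 core subunits encoded in the nucleus carry the flavin and iron-sulphur clusters that move electrons through the matrix arm, or lie beside them. Ndufv1, which binds the flavin and NADH, had 1.39, 4.36 and 5.84 CPM in the KYZY libraries, 1.82, 1.38 and 1.91 CPM in the stress libraries and 0.992, 1.65 and 3.09 CPM in the control libraries. KYZY 2 and KYZY 3 were the highest, and KYZY 1 lay among the stress libraries. Its log2 fold change was 1.18 ± 0.545 (SE) in KYZY against stress (unadjusted p = 0.0544, adjusted p = 0.935) and 1.01 ± 0.543 in KYZY against control (unadjusted p = 0.0906, adjusted p = 0.996), by edgeR's quasi-likelihood test with Benjamini-Hochberg adjustment. Without the 4 libraries that stood apart these values were -0.19 ± 0.547 and 0.10 ± 0.543, so that the sign against stress turned. Ndufv2, its partner in the NADH-oxidising module, had 6.54, 9.95 and 11.3 CPM in KYZY, 7.80, 9.64 and 7.30 CPM in stress and 7.47, 10.3 and 12.1 CPM in control. The 3 groups overlapped, and the log2 fold changes were between -0.27 and 0.17. Ndufs1, the large iron-sulphur subunit of that module, had 3.59, 4.27 and 5.26 CPM in KYZY, 4.71, 4.37 and 3.35 CPM in stress and 4.17, 3.19 and 5.03 CPM in control, which also overlapped.

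In the quinone-binding module, Ndufs7 was higher in every KYZY library than in the stress libraries. Ndufs7, carrier of the last iron-sulphur cluster before quinone, had 3.08, 4.77 and 6.35 CPM in KYZY, 2.26, 2.97 and 2.75 CPM in stress and 3.21, 2.67 and 4.45 CPM in control. All 3 KYZY libraries lay above all 3 stress libraries, by 0.83 ± 0.330 on the log2 scale (unadjusted p = 0.0300, adjusted p = 0.935, edgeR), and they overlapped control. Without the 4 libraries that stood apart, the difference in Ndufs7 was 0.25 ± 0.399 (adjusted p = 0.911, edgeR, with KYZY 1 alone in its group). Ndufs3 had 2.98, 4.46 and 7.08 CPM in KYZY, 3.94, 4.24 and 3.23 CPM in stress and 2.70, 2.94 and 7.63 CPM in control, with KYZY 3 and control 3 about level at the top. Ndufs8, which also holds iron-sulphur clusters, had 3.14, 3.39 and 5.65 CPM in KYZY, 3.30, 3.56 and 3.23 CPM in stress and 4.41, 3.78 and 5.04 CPM in control. Its stress libraries lay below all control libraries, by -0.39 ± 0.286 on the log2 scale (unadjusted p = 0.201, adjusted p = 1.00, edgeR).

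Among the accessory subunits, Ndufa10 was steady across libraries. It had 149, 122 and 148 CPM in KYZY, 167, 162 and 148 CPM in stress and 165, 160 and 161 CPM in control. Its KYZY libraries all lay below the control libraries, with a log2 fold change of -0.21 ± 0.183 (unadjusted p = 0.271, adjusted p = 0.996, edgeR). Ndufab1, whose copies elsewhere in the genome make its counts uncertain, had 57.6, 51.6 and 34.9 CPM in KYZY, 61.1, 51.6 and 63.3 CPM in stress and 75.2, 49.7 and 44.6 CPM in control. In neither gene did KYZY 3 or control 3 stand above the rest. At the other end of the NdufA series, Ndufa4l2 was at 0 in replicate 1 of every group and had 1.06 and 0.428 CPM in KYZY 2 and 3, 0.0872 and 0.621 CPM in stress 2 and 3 and 0.287 and 0.156 CPM in control 2 and 3. Ndufa4l2 is a paralogue of Ndufa4, which is now assigned to complex IV, and leaving both out of the 38, an alternative chosen after seeing the data, gave subunit medians of -0.40 (stress against control), 0.50 (KYZY against stress) and 0.11 (KYZY against control). In the NdufS series the accessory subunit Ndufs4, whose loss in mice gives a model of Leigh syndrome, had 3.92, 5.36 and 5.88 CPM in KYZY, 6.26, 6.75 and 4.10 CPM in stress and 6.13, 7.98 and 5.61 CPM in control. Ndufs5, found on the intermembrane side and the lowest of its series, had 0.616, 0.308 and 1.06 CPM in KYZY, 0.503, 0.419 and 0.823 CPM in stress and 0.744, 0.802 and 0.925 CPM in control. The 3 groups overlapped in Ndufs4, and in Ndufs5 stress 3 and KYZY 3 reached the control range while the other 4 stressed or treated libraries lay below it.

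In the comparisons with the stress group, the widest fold changes belonged to Ndufb10 and Ndufc1 of the membrane arm. Ndufb10, a subunit of the intermembrane side with disulphide-bonded cysteines (chromosome 17, 24722060 to 24724478, minus strand, GRCm38), had 0.205, 0.646 and 2.18 CPM in KYZY, 0.147, 0.140 and 0.202 CPM in stress and 0.397, 0.420 and 2.08 CPM in control. All stress libraries lay below every library of the other groups. Their values came from 12, 16 and 13 counts, at or just above the floor of 12, while KYZY 1 had 13 counts, KYZY 3 had 107 and control 3 had 160. The log2 fold change was 2.62 ± 0.972 in KYZY against stress (unadjusted p = 0.0218, adjusted p = 0.935) and -2.56 ± 0.968 in stress against control (unadjusted p = 0.0239, adjusted p = 1.00) by edgeR's test. Without control 3, stress against control gave -1.32 ± 0.947 for Ndufb10, and without the 4 libraries that stood apart the values were 0.53 ± 1.40 for KYZY against stress and -1.49 ± 1.17 for stress against control. Ndufc1 (chromosome 3, 51404677 to 51408988, minus strand) had 0.584, 1.92 and 6.16 CPM in KYZY, 0.209, 0.628 and 0.481 CPM in stress and 0.380, 1.31 and 4.49 CPM in control. KYZY 3 and control 3 were again the highest, KYZY 1 and control 1 lay within the stress range, and the log2 fold changes were 2.71 ± 1.05 in KYZY against stress (unadjusted p = 0.0304, adjusted p = 0.935) and -2.22 ± 1.03 in stress against control (unadjusted p = 0.0604, adjusted p = 1.00, edgeR). Without the 4 libraries these were 0.49 ± 0.965 and -1.0 ± 0.797. Ndufc2, the other NdufC subunit, had 1.64, 2.41 and 2.12 CPM in KYZY, 1.68, 1.95 and 1.85 CPM in stress and 2.36, 1.85 and 3.02 CPM in control, with overlap between all groups.

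The NdufB series, all subunits of the membrane arm, ran lower in stress than in control in 10 of 10 genes by the sign of the fold change, where 46.0% of all genes tested were higher. The other series leaned the same way, with 12 of 15 NdufA, 2 of 2 NdufC, 7 of 8 NdufS and 3 of 3 NdufV genes lower. Without control 3, and likewise without the 4 libraries that stood apart, 4 of the 10 NdufB genes were higher and 6 lower. Ndufb6, the most abundant NdufB gene per kilobase, had 6.49, 6.02 and 10.2 CPM in KYZY, 7.09, 5.94 and 4.94 CPM in stress and 6.56, 5.28 and 10.5 CPM in control. Ndufb3 had 0.679, 1.10 and 1.65 CPM in KYZY, 0.895, 0.523 and 0.869 CPM in stress and 1.29, 1.08 and 2.17 CPM in control. The 3 stress libraries lay below the control libraries in Ndufb3, with a log2 fold change of -0.99 ± 0.492 (unadjusted p = 0.0712, adjusted p = 1.00, edgeR), and Ndufb6 overlapped between all groups. Ndufb4, shown above with its promoter, had 0.190, 0.749 and 1.35 CPM in KYZY, 0.294, 0.471 and 0.419 CPM in stress and 0.413, 0.392 and 1.28 CPM in control. Ndufb9, which belongs to the proteins with an LYR motif, had 2.16, 11.7 and 16.7 CPM in KYZY, 1.57, 3.00 and 3.54 CPM in stress and 2.00, 1.94 and 11.1 CPM in control. In both, KYZY 2, KYZY 3 and control 3 held the 3 highest values.

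**Figure D3:**
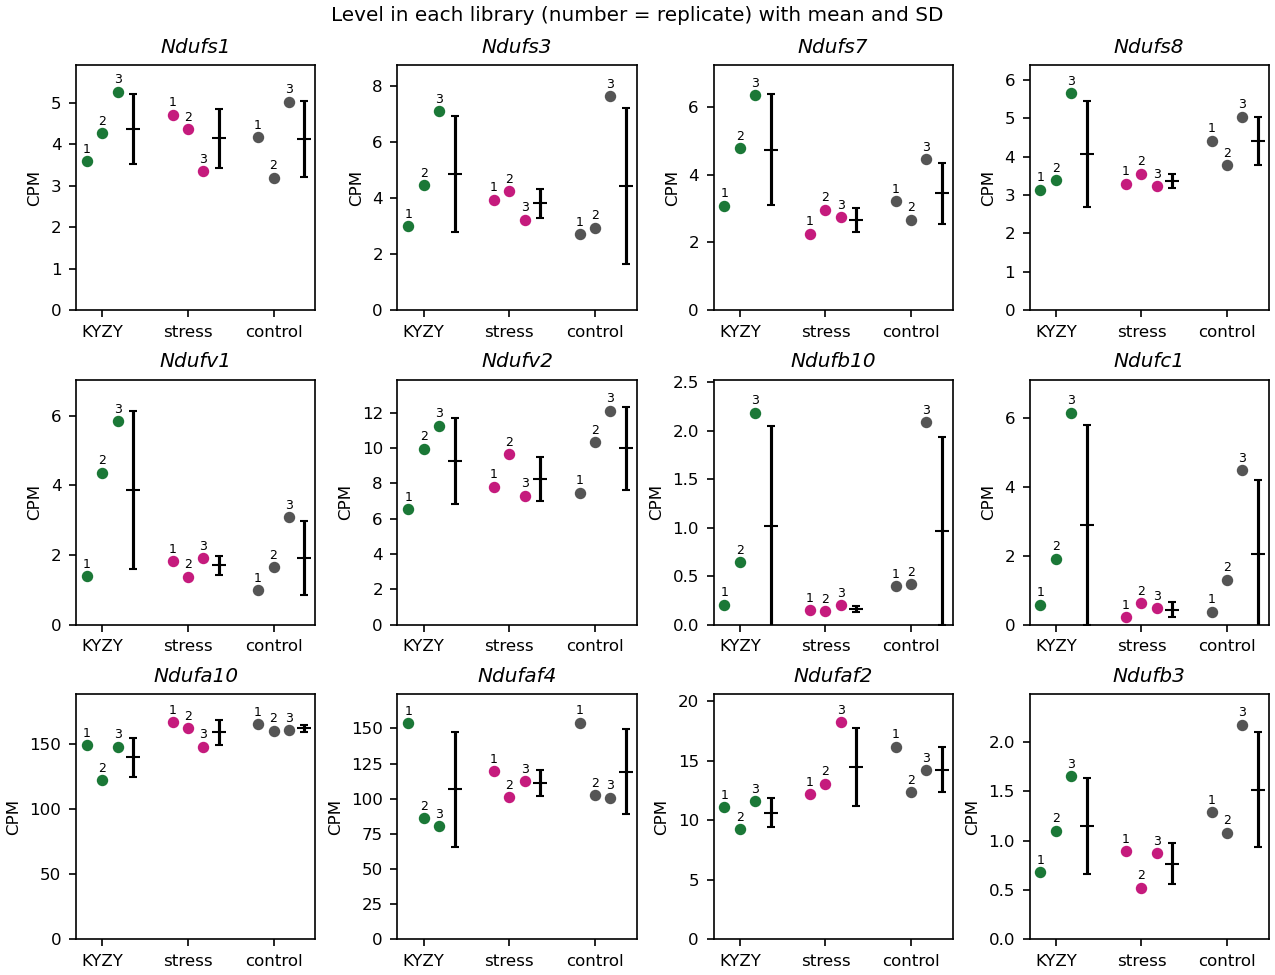
Points give the CPM of 12 genes in each library, numbered by replicate, with the mean and SD of each group of 3 beside them, bars being cut at 0. KYZY 3 and control 3 are the top library of their group in Ndufs3, Ndufb10 and Ndufc1, whereas the KYZY mean of Ndufa10 and of Ndufaf2 is the lowest of the 3 groups.

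The assembly factors mostly varied less between libraries than the median subunit, with Ndufaf1 and Ndufaf6 as exceptions. Ndufaf4 (chromosome 4, 24898083 to 24905001, plus strand) had 154, 86.2 and 80.3 CPM in KYZY, 119, 101 and 112 CPM in stress and 154, 102 and 101 CPM in control. Replicate 1 was the highest of each group, and the fold changes were within their standard errors, at -0.10 for stress against control, -0.06 for KYZY against stress and -0.16 for KYZY against control. Ndufaf2, a relative of the subunit Ndufa12 that takes part in late assembly, had 11.1, 9.26 and 11.6 CPM in KYZY, 12.2, 13.1 and 18.3 CPM in stress and 16.2, 12.4 and 14.2 CPM in control. Its KYZY libraries lay below all other libraries, with log2 fold changes of -0.45 ± 0.221 against stress (unadjusted p = 0.0707, adjusted p = 0.935) and -0.42 ± 0.221 against control (unadjusted p = 0.0857, adjusted p = 0.996) by edgeR's test. Without the 4 libraries that stood apart these were -0.17 ± 0.264 and -0.33 ± 0.266. Ndufaf8, known in human cells as the partner of Ndufaf5, which modifies Ndufs7, had 2.50, 2.55 and 2.22 CPM in KYZY, 3.23, 3.36 and 2.05 CPM in stress and 3.34, 3.86 and 3.54 CPM in control. KYZY lay below control in all libraries, at -0.56 ± 0.282 (unadjusted p = 0.0733, adjusted p = 0.996, edgeR), and overlapped stress. Ndufaf7, a methyltransferase, was the steadiest assembly factor, with 9.03, 13.1 and 9.37 CPM in KYZY, 9.49, 9.03 and 10.6 CPM in stress and 9.74, 11.4 and 9.01 CPM in control. Ndufaf1, which acts in the assembly of the membrane arm, was at or below the floor in stress and in 2 of 3 control libraries, with 0, 0.367 and 0.326 CPM in KYZY, 0.0491, 0 and 0.124 CPM in stress and 0.0827, 0 and 0.208 CPM in control.

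Other assembly factors, which carry no Nduf symbol, were represented by 12 of 13 genes looked for. By the sign of the fold change 4 of the 12 were higher and 8 lower in stress than in control, 7 higher and 5 lower in KYZY than in stress, and 1 higher and 11 lower in KYZY than in control, with medians of -0.23, 0.11 and -0.26. None of the 12 passed edgeR's adjusted threshold of 0.05, and 1, 2 and 0 of them had an unadjusted p under 0.05 in the 3 comparisons, against 2.69%, 3.98% and 2.74% of all genes. Of all genes 46.0%, 50.8% and 49.7% were higher in these comparisons. Acad9, a partner of Ndufaf1, had 9.74, 8.02 and 7.0 CPM in KYZY, 13.9, 15.4 and 10.2 CPM in stress and 11.9, 12.7 and 6.81 CPM in control. The KYZY libraries lay below the stress libraries, at -0.67 ± 0.282 on the log2 scale (unadjusted p = 0.0374, adjusted p = 0.935, edgeR). Tmem126a was at 0 in KYZY 1, in all stress libraries and in control 1, and had at most 0.592 CPM in the remaining 4.

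The comparison of stress with control asks which transcripts differ after the stressors. No gene passed an adjusted p of 0.05 by edgeR (percent called 0 of 13890 genes), so no complex I gene did. An unadjusted p under 0.05 was found for 373 genes in all, and 1 of 46 complex I genes (2.17%, Ndufb10) had such a p against 2.69% of all genes. DESeq2 called 22 genes (0.159%), none of them a complex I gene, and gave an unadjusted p under 0.05 for 2 of the 46 and for 3.60% of all genes. The groups did not overlap in 5 of 46 genes (10.9%), against 7.88% of all genes tested. These were Ndufa1, Ndufb3, Ndufb8, Ndufb10 and Ndufs8, all lower in stress, a direction in which 4.38% of all genes did not overlap. By sign, 4 subunits were higher and 34 lower in stress, with a median log2 fold change of -0.39, while the median of all genes was -0.03 and 46.0% of them were higher. The assembly factors were higher in 2 and lower in 6, with a median of -0.09. Without control 3 the subunits divided into 18 higher and 20 lower with a median of -0.02, and without the 4 libraries that stood apart into 18 higher and 20 lower with a median of -0.04.

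The comparison of KYZY with stress asks what differs where the recipe followed the stressors. Again edgeR called 0 of 13890 genes (percent called 0), and 3 complex I genes (6.52%), Ndufb10, Ndufc1 and Ndufs7, had an unadjusted p under 0.05 against 553 (3.98%) of all genes. DESeq2 called 13 genes (0.0941%), none of them a complex I gene, and gave an unadjusted p under 0.05 for 6 of the 46 and for 5.66% of all genes. KYZY lay above stress without overlap in Ndufb7, Ndufb10 and Ndufs7 and below it in Ndufaf2, which is 4 of 46 genes (8.70%) against 9.19% of all genes tested (3.76% higher and 5.44% lower). By sign, 34 subunits were higher and 4 lower in KYZY, with a median of 0.56 against 0.01 for all genes, of which 50.8% were higher, and the assembly factors divided into 4 and 4 with a median of -0.02. The 26 subunits with a mean of at most 5 CPM were all on the higher side with a median of 0.88, and the 12 above 5 CPM were higher in 8 and lower in 4 with a median of 0.24. The split at 5 CPM was not planned, and it was not made for all genes or with libraries left out. Without KYZY 3, 27 subunits of any level were higher and 11 lower, with a median of 0.26. Without the 4 libraries that stood apart, KYZY 1 alone stood for its group, with 9 subunits higher and 29 lower and a median of -0.13. There the median of all genes was -0.09, and 43.3% of them were higher. Comparisons with stress and with control share libraries and are not independent of each other.

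The comparison of KYZY with control sets stressed and treated mice against unstressed mice. The edgeR test called 0 of 13890 genes (percent called 0), and 0 complex I genes had an unadjusted p under 0.05 against 380 (2.74%) of all genes. DESeq2 called 1 gene (0.00724%), which was not a complex I gene, and gave an unadjusted p under 0.05 for 0 of the 46 and for 3.43% of all genes. Ndufa10, Ndufaf2 and Ndufaf8 lay below control without overlap, which is 3 of 46 genes against 4.79% of all genes in that direction and 7.23% in either. By sign, 25 subunits were higher and 13 lower in KYZY, with a median of 0.13 against -0.00 for all genes, of which 49.7% were higher, and 3 assembly factors were higher and 5 lower with a median of -0.12. The subunit median changed its sign with single libraries. It was -0.22 without KYZY 3, -0.04 without control 1 and without control 2, and 0.71 without control 3.

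**Figure D4:**
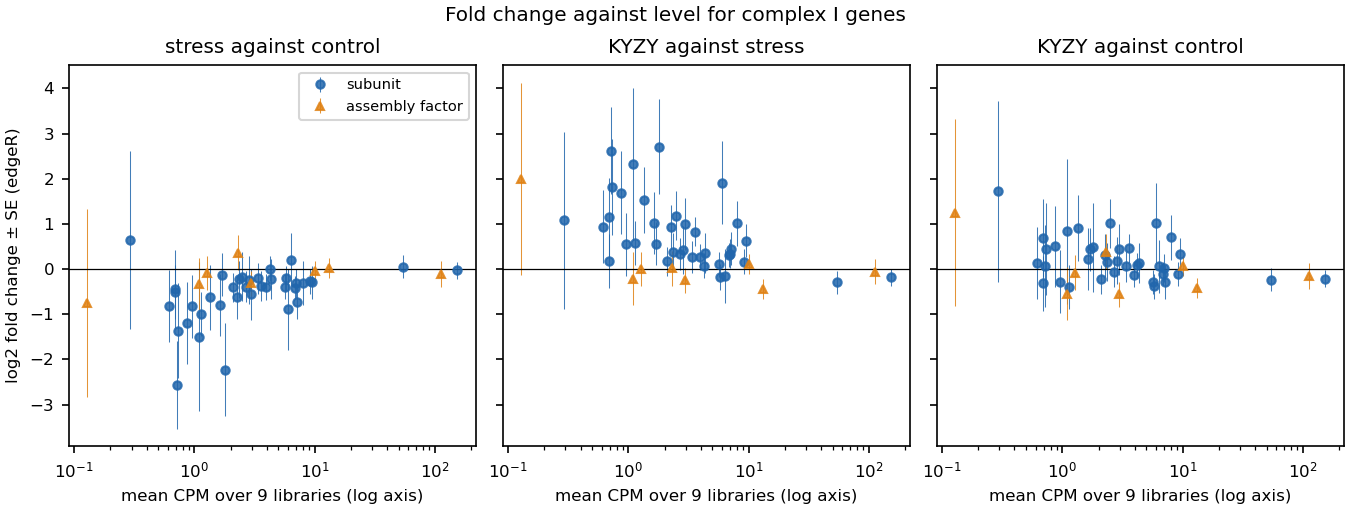
Each of 46 genes is drawn at its mean CPM over 9 libraries (log axis) with its log2 fold change and standard error from edgeR, for the 3 comparisons. Subunits of low level (a mean of at most 5 CPM) spread farthest from 0. They lie below it in stress against control, except Ndufa4l2 and Ndufs1 (0.0065), and above it in KYZY against stress. Ndufa10, Ndufab1 and Ndufaf4 at the right end lie within 0.29 of 0.

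**Figure D5:**
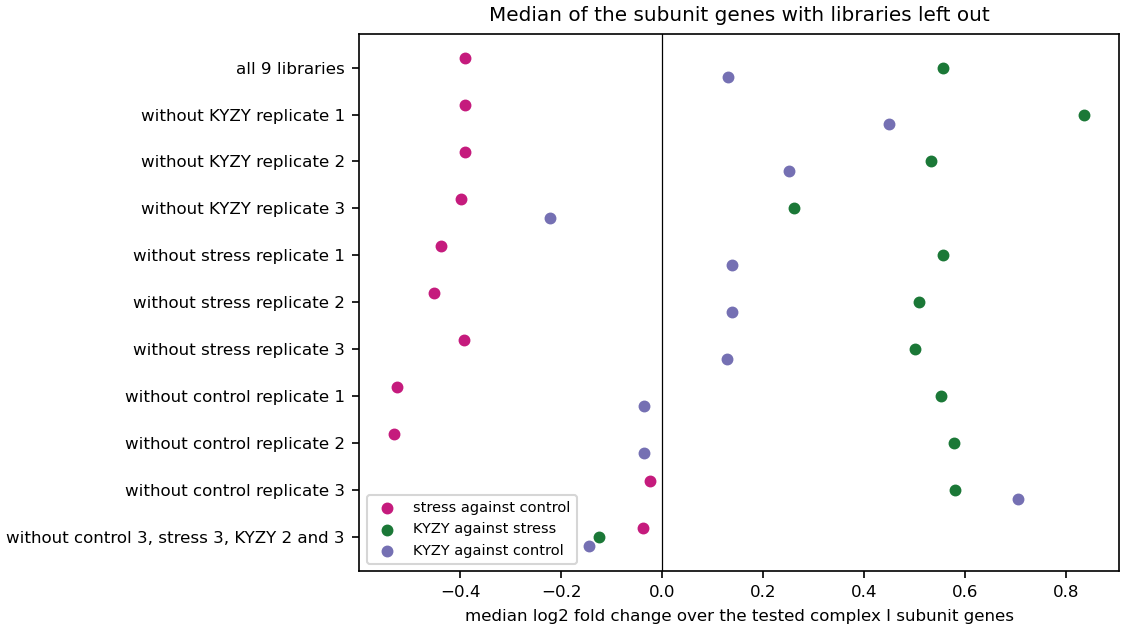
Points give the median log2 fold change over the subunit genes with all 9 libraries, with each library left out in turn, and without the 4 libraries that stood apart. The median of stress against control moves to -0.02 without control 3, and that of KYZY against stress moves to -0.13 without the 4 libraries.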

How the data were processed

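Per the labels' protocols, libraries were built by SMART-Seq v4 amplification and Tn5 tagmentation, which keep neither molecular identifiers nor strand. The deposited values were taken to be expected counts (whole-number estimates per gene, not normalized), from the values and the tools listed, since the file headers name no unit. The submitters' processing notes list the builds GRCm38 and mm10 and the tools HISAT2, StringTie, DESeq2, Trim Galore and bcl2fastq 2.20, whose roles are not given in the sources used here. Floors cover counting error only.

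The tests were run with edgeR 4.0.16 (R 4.3.3). After TMM scaling, filterByExpr (minimum count 10, minimum total 15) kept 13890 genes. All 9 libraries entered a single quasi-likelihood fit of the group means (6 residual degrees of freedom, common biological coefficient of variation 0.611). It was also run on simulated counts, which had a smaller spread than these data and changes only in genes of higher counts. That run therefore cannot show how the fit performs on genes of low counts here. Groups were compared by 2-sided tests with Benjamini-Hochberg adjustment over all genes at 0.05. DESeq2 1.42.0 was the other tool. CPM values and their SD are computed here, and coordinates and merged exons are from GENCODE on GRCm38.

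Members, gene lists, markers and alternatives were chosen with earlier results of these data known. Genes given library by library were the core subunits (1 of which is not reported here), the highest and lowest gene of each series by mean CPM and the 3 smallest unadjusted p of each comparison. Ndufab1, Ndufaf7, Ndufb9, Acad9 and Tmem126a were added after their values were seen.

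For 15 members that overlap another gene by at least 50 exon bases, reads from the shared stretch cannot be told apart. Among them were Ndufs1, Ndufs3, Ndufb6, Ndufb9, Ndufaf2 and Ndufab1. The shared stretch was 88 of 2178 exon bases in Ndufs3 and 1955 of 2978 in Ndufaf2. Reads are also uncertain for 9 members with a copy elsewhere of at least 150 aligned bases at 95% identity. These were Ndufa12, Ndufab1, Ndufaf7, Ndufb3, Ndufb4, Ndufb11, Ndufs3, Ndufs5 and Ndufs6.

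Replicate numbers were not part of the fit and entered only as a block in an alternative. Over all genes, same-numbered stress and control libraries deviated together (r = 0.21, 0.33 and 0.35), but so did stress 1 and control 2 (r = 0.33), so any pairing rests on the data and not the design. For KYZY 1, 2 and 3 the values were 0.37, -0.20 and 0.12 with stress and 0.56, -0.12 and 0.63 with control, which were not taken as pairs.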

Additional observations from a re-analysis of the deposited data

How the results depend on the processing

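Calls and medians were recomputed under 16 alternatives. No complex I gene passed an adjusted p of 0.05 under any of them, the smallest being 0.236 by edgeR without the 4 libraries that stood apart. Genes called over the whole table numbered 22 (stress against control), 13 (KYZY against stress) and 1 (KYZY against control) with DESeq2, 1 for KYZY against stress with those groups fitted alone, and 148, 115 and 119 without the 4 libraries, where 1 KYZY library is assumed to vary like the other groups. With single libraries left out they were 0 to 2, 0 to 1 and 0 to 3. Subunit medians with single libraries left out ran from -0.53 to -0.02 for stress against control, 0.26 to 0.84 for KYZY against stress and -0.22 to 0.71 for KYZY against control. Those of the assembly factors ran from -0.19 to -0.059, -0.14 to 0.14 and -0.17 to 0.064. Without the 4 libraries, Ndufaf1 was not tested, and the medians of the other 7 assembly factors were -0.16, -0.17 and -0.33 in that order. The subunit median of KYZY against stress was then -0.13, and that of all genes was -0.09. The cause was not tested. The replicate block called 0 genes in each comparison, with subunit medians of -0.33, 0.41 and 0.11, and the pairing changed no call. Of 997 values of named genes under the alternatives, 72 changed sign and 0 were called. Genes near the floor of 12 counts, such as Ndufb10 in stress, Ndufa4l2 and Ndufaf1, rest on a few read pairs each.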
